A study of Mus musculus with 6 samples.

Results

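The genes described here encode the mitochondrial respiratory chain and the routes by which proteins and metabolites enter mitochondria. They were chosen by symbol, as every row of the count table whose name begins with Nduf, Sdha to Sdhd, Uqcr, Cox or Coq followed by a digit, Atp5, Timm, Tomm or Slc25a, which gave 52 of 4162 genes. In the GENCODE M21 annotation 190 protein-coding genes have such a symbol. Of these, 51 were in the table, and the remaining gene, Atp5sl, is listed there under its current symbol Dmac2. The other 139 were not analysed here.

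Total RNA of CD4+ T cells was sequenced from 3 WT (wild type, B6.WT) and 3 UTX TCD (B6.UTX TCD) mice. UTX TCD mice lack UTX, a histone demethylase encoded by Kdm6a, in T cells. The sources used here do not give the promoter driving the deletion, the deleted exons or the ages. In both genotypes naive CD4+ T cells had been enriched from spleen with a magnetic kit and then stimulated for 48 h with anti-CD3 on the plate and anti-CD28 in solution. The comparison addresses which transcripts differ when T cells without UTX are activated.

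The respiratory chain passes electrons from NADH and succinate through complexes I to IV to oxygen, with coenzyme Q and cytochrome c as mobile carriers, and complex V uses the resulting proton gradient to make ATP. Nearly all of the proteins involved are made in the cytosol. They enter through the TOM complex of the outer membrane and are sorted by TIM complexes of the inner membrane, while carriers of the SLC25 family move metabolites, nucleotides and ions across the inner membrane. T cells enlarge and remodel their mitochondria after activation, when demand for ATP and for biosynthetic precursors rises.

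Values are CPM, counts scaled to a common total over the listed genes. Each log2 fold change sets UTX TCD against WT and is given with its standard error, and a gene is said to have risen or fallen where edgeR's quasi-likelihood test gave a Benjamini-Hochberg adjusted p under 0.05 over all genes tested. The genes of the table had been selected on the genotype difference: only 20 of 4118 tested genes had a log2 fold change within 0.1 of 0. Column totals were 8363326 to 10288306 counts and are not library depths. Each library came from a separate mouse. UTX TCD libraries varied more than WT libraries, with a chi-square statistic per degree of freedom of 19.9 to 87.7 between them against 7.09 to 11.7 between WT libraries, and replicate 2 stood farthest from the other UTX TCD libraries. Kdm6a measured 286, 281 and 281 CPM in WT replicates 1 to 3 and 188, 207 and 179 CPM in UTX TCD replicates 1 to 3. It fell by 0.56 ± 0.09 on the log2 scale (edgeR adjusted p = 0.0029), and its counts were not split by exon. Of 12 T cell markers 3 had rows (Cd28, Cd2 and Lck), with summed levels of 2986 to 3143 CPM in WT mice and 3951 to 4888 CPM in UTX TCD mice. Cd28 and Cd2 rose by 0.83 ± 0.11 and 1.10 ± 0.23 on the log2 scale, while Lck stood at -0.13 ± 0.07 and did not pass, with each UTX TCD library below each WT library. Cd8b1, the 1 CD8 T cell marker of 2 with a row, measured 11.6 to 14.5 CPM in WT mice and 31.5 to 56.2 CPM in UTX TCD mice. Ighm, 1 of 10 B cell markers, measured 431 to 527 and 471 to 759 CPM, and 3 of 9 NK cell markers (Klrd1, Prf1 and Eomes) summed to 28.6 to 67.9 and 35.4 to 62.8 CPM. Most of that sum was Eomes, which overlapped between genotypes, while Klrd1 rose by 1.40 ± 0.36 (edgeR adjusted p = 0.015) and Prf1 was higher in each UTX TCD library at 0.60 ± 0.26 without passing. Pecam1, 1 of 10 stromal and endothelial markers, measured 113 to 138 and 206 to 369 CPM. The other markers, and all of those of myeloid, dendritic, erythroid and platelet cells, were not analysed here, and the part of other cells in the results below was not tested. In such bulk samples, fewer cells of a type and less RNA per cell cannot be told apart.

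All 52 genes passed the low-count filter. In UTX TCD cells 10 rose (19.2%, where 41.1% of all genes tested were called higher) and 13 fell (25.0%, where 27.0% of all were called lower). The share that fell was thus near that of the table, and the share that rose was below it, so that 23 of the 52 were called in all, against 68.1% of all genes tested. The other 29 genes had edgeR adjusted p-values between 0.0511 and 0.173, and each of them had a negative log2 fold change. In all, 42 of the 52 fold changes (80.8%) were negative, against 53.4% of all genes tested, and their median was -0.25 against -0.15 (-0.17 against -0.10 without UTX TCD replicate 2). The WT and UTX TCD libraries did not overlap in 10 genes that were higher (41.8% of all genes tested) and 34 that were lower (44.0% of all), together 44 of the 52 against 85.8% of all. At least 1.5-fold differences were found in 8 of the 10 genes that rose and 3 of the 13 that fell, and over the whole table in 978 of 1692 called higher and 439 of 1111 called lower. When WT replicates 1, 2 and 3 were left out in turn, 6, 4 and 8 genes were higher and 1, 1 and 4 lower. For UTX TCD replicates 1, 2 and 3 the counts were 10, 7 and 7 higher and 23, 20 and 18 lower.

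Most rises lay among carriers and most falls among import subunits. Over all genes tested 41.1% were called higher and 27.0% lower. Of 11 SLC25 carriers 6 rose (54.5%) and 0 fell, at a median log2 fold change of 0.61. Of 14 subunits of the TOM and TIM translocases 0 rose and 8 fell (57.1%), and all 14 fold changes were negative, against 53.4% of all genes tested. Of 22 genes for subunits and assembly factors of complexes I to V, 3 rose and 3 fell at a median of -0.23, and of 5 coenzyme Q genes 1 rose and 2 fell at a median of -0.29. Whether roles differed from each other was not tested.

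**Figure D1:**
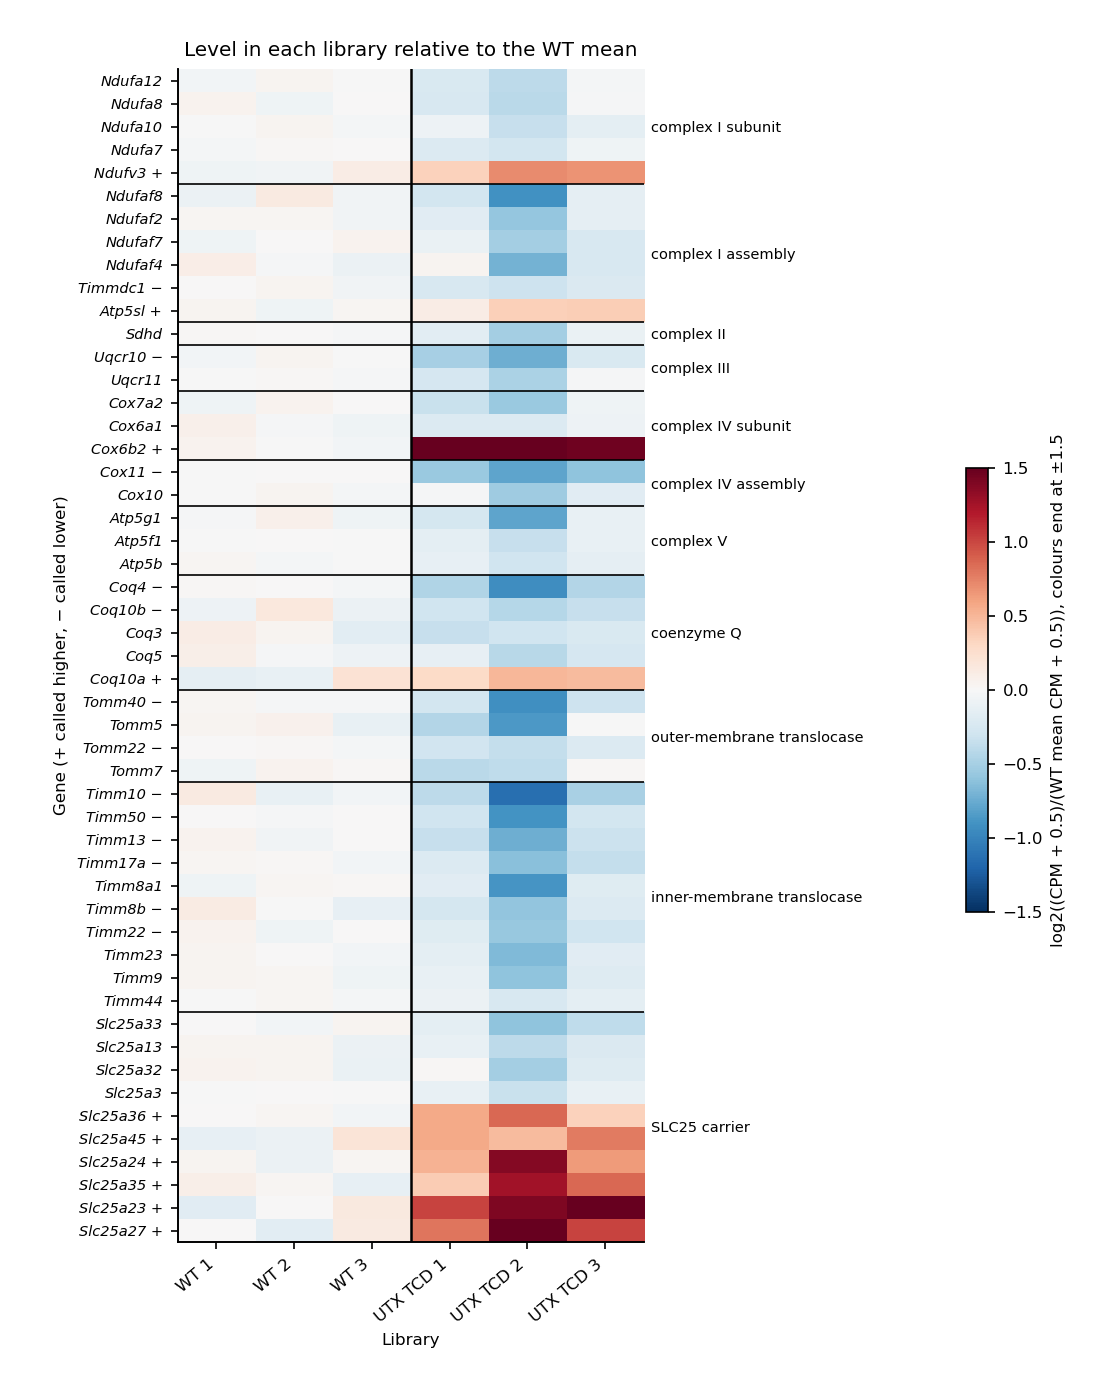
Level of 51 of the 52 genes (rows, ordered by role) in each of the 6 libraries (columns), as log2 of the CPM plus 0.5 over the WT mean CPM plus 0.5. Blue is lower and red is higher than the WT mean. The 6 SLC25 carriers at the bottom, Cox6b2 and Ndufv3 are red in all 3 UTX TCD columns, the TOM and TIM rows are nearly all blue, and the deepest blue lies in the column of UTX TCD replicate 2.

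In UTX TCD cells 8 of the 14 translocase genes fell, and the other 6 had negative fold changes that did not pass. The outer-membrane complex is built around Tomm40, the channel through which almost all imported proteins pass, with Tomm22 as its central receptor and the small subunits Tomm5 and Tomm7. Tomm40 measured 598, 575 and 578 CPM in WT mice and 482, 309 and 471 CPM in UTX TCD replicates 1 to 3. Each UTX TCD library lay below each WT library, with replicate 2 lowest, and Tomm40 fell by 0.47 ± 0.16 on the log2 scale (edgeR adjusted p = 0.035), with a log2 fold change of -0.30 without that library. Tomm22 measured 298, 300 and 292 CPM in WT mice and 244, 232 and 257 CPM in UTX TCD mice. The groups did not overlap and were tight, and Tomm22 fell by 0.28 ± 0.08 (edgeR adjusted p = 0.019). Tomm5 and Tomm7 had log2 fold changes of -0.40 ± 0.20 and -0.24 ± 0.12 and did not pass the test (edgeR adjusted p = 0.099 and 0.10). In both, UTX TCD replicate 3 lay within the WT range (76.4 CPM of Tomm5 and 197 CPM of Tomm7), so that the groups overlapped.

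Of 10 inner-membrane translocase genes 6 fell, and in all 10 each UTX TCD library lay below each WT library. Over all genes tested 27.0% were called lower and 44.0% lay lower without overlap. Timm10, a small chaperone that escorts hydrophobic carriers through the intermembrane space, changed most. It measured 104, 87.7 and 92.1 CPM in WT mice and 71.7, 42.8 and 67.1 CPM in UTX TCD mice, a fall of 0.64 ± 0.19 on the log2 scale (edgeR adjusted p = 0.022). Timm13, which forms a second chaperone complex of that space with Timm8 proteins, measured 218, 203 and 211 CPM in WT mice and 166, 127 and 169 CPM in UTX TCD mice. It fell by 0.45 ± 0.12 (edgeR adjusted p = 0.017), again with its lowest value in UTX TCD replicate 2. Timm8b fell by 0.35 ± 0.13 (edgeR adjusted p = 0.043). Timm8a1, the X-linked homologue of the gene behind human deafness-dystonia syndrome, measured 44.9, 47.9 and 47.6 CPM in WT mice and 41.6, 25.2 and 41.3 CPM in UTX TCD mice. Its log2 fold change of -0.38 ± 0.20 did not pass (edgeR adjusted p = 0.11). Timm9, the partner of Timm10, stood at -0.29 ± 0.13 and did not pass either (edgeR adjusted p = 0.077).

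The channels and receptors of the inner membrane had negative fold changes too. Timm50, the receptor that receives presequence proteins from TOM, measured 333, 328 and 334 CPM in WT mice and 269, 178 and 274 CPM in UTX TCD mice. Its WT values were close to each other, all UTX TCD values were lower, and it fell by 0.47 ± 0.16 (edgeR adjusted p = 0.034), with a log2 fold change of -0.30 without UTX TCD replicate 2. Timm17a, a channel subunit of the presequence translocase, measured 285, 284 and 271 CPM in WT mice and 244, 181 and 218 CPM in UTX TCD mice. The groups did not overlap and it fell by 0.39 ± 0.12 (edgeR adjusted p = 0.023). Timm22, the channel that inserts carriers into the inner membrane, fell by 0.34 ± 0.12 (edgeR adjusted p = 0.035). Timm23 and Timm44, the other channel subunit and the tether of the import motor, had log2 fold changes of -0.31 ± 0.14 and -0.16 ± 0.08 and did not pass.

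Summed over genes, the 4 TOM subunits went from 1152 ± 12.4 to 888 ± 139 CPM and the 10 TIM subunits from 1732 ± 37.6 to 1348 ± 206 CPM (SD, n = 3), changes of -23.0% and -22.2%. For each sum all UTX TCD values were below all WT values, and an exact two-sided permutation test gave p = 0.1, the smallest p that 3 against 3 libraries allow. The summed genes come from a table selected on the genotype difference, which favours separate groups, so this p gives no independent support. UTX TCD replicate 2 was the lowest in both (733 and 1111 CPM). The 8 falls among the 14 translocase genes numbered 0, 0 and 1 when WT replicates 1, 2 and 3 were left out in turn, and 10, 9 and 9 for UTX TCD replicates 1, 2 and 3. With upper-quartile scaling 4 passed, and 0 passed when the adjustment counted all annotated protein-coding genes. The count of 0 rises was also 0 at an unadjusted p under 0.05 and with DESeq2 and limma-voom, with or without quality weights. With all 14 fold changes negative in each of these fits no rise was possible, so this adds no support.

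Promoter sequences were available from RefSeq for 46 of the 52 genes (GRCm38.p6, from 250 bases before to 50 after the start). They were searched on both strands for 8 motifs: NRF1 as GCGCATGC, ETS as CCGGAAG, YY1 as AAGATGG, the E-box CACGTG, the CRE TGACGTCA, CCAAT, the GC box GGGCGG and TATAAA. The ETS letters were in 11 of the 46 promoters (23.9%), in 4 of 13 genes that fell (30.8%) and in 0 of 8 that rose. They were in 9.9% of 27025 promoters, 18.7% of those of genes tested, 21.8% of those called lower and 10.8% of those called higher. The NRF1 letters were in 5 of 46 (10.9%) and in 5.6% of the genes tested, and the E-box in 12 of 46 (26.1%) and in 12.8%. Since the search came after the calls were known, these shares are a description, and a match is not evidence of binding. The windows below hold the ETS letters of the 4 genes that fell, with the match nearest to the start where there were several upstream, and the NRF1 letters of Timm13. They show that the letters lie in either orientation, and capitals mark the match. In the windows of Timmdc1 and Tomm22 both orientations match with an overlap, and capitals mark only the first.

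Timm10 (chr2:84826995-84827021, + strand): tcggcgttttCTTCCGGatcaaagaag
Timm8b (chr9:50603879-50603905, + strand): gaagcgtgaaCCGGAAGgcaggagacg
Timmdc1 (chr16:38522658-38522684, - strand): tttccgagagCTTCCGGaagtgagccg
Tomm22 (chr15:79670811-79670837, + strand): gcccggctcgCTTCCGGaagacgctct
Timm13 (chr10:80901144-80901171, - strand): tatattgtacGCATGCGCagcggggagg

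Timm8b and Sdhd, the gene of a membrane anchor of complex II, are transcribed away from each other. Their RefSeq starts are 51 bases apart on chromosome 9, so 1 ETS match lies before both genes. The stretch between the starts is shown on the strand of Sdhd, with the match in capitals.

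Sdhd to Timm8b (chr9:50603850-50603900, - strand): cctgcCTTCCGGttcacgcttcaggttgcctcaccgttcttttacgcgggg

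The pair had fold changes of the same sign. Sdhd measured 389, 385 and 380 CPM in WT mice and 346, 269 and 360 CPM in UTX TCD mice. All 3 UTX TCD values were below the WT values, but the log2 fold change of -0.24 ± 0.12 did not pass (edgeR adjusted p = 0.087), while that of Timm8b did. Of 4 other such pairs with both genes tested, Ndufaf7 with Cebpz and Slc25a32 with Dcaf13 also had negative fold changes throughout, and only Dcaf13 passed, falling by 0.29 ± 0.11 (edgeR adjusted p = 0.047). The other pairs had opposite signs. Ndufv3, which rose, starts 135 bases from Wdr4, whose log2 fold change of -0.36 ± 0.17 did not pass. Cox10, at -0.22 ± 0.13 and not called, starts 16 bases from the antisense transcript 2810001G20Rik, which rose by 0.88 ± 0.25 (edgeR adjusted p = 0.020).

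The SLC25 carriers held most of the rises. Slc25a23 and Slc25a24 are calcium-regulated carriers that exchange ATP-magnesium for phosphate and so set the adenine nucleotide content of the matrix. Slc25a23 measured 46.1, 52.2 and 57.7 CPM in WT mice and 105, 138 and 149 CPM in UTX TCD mice. The lowest UTX TCD value was well above the highest WT value, and the gene rose by 1.33 ± 0.15 on the log2 scale, 2.52-fold (edgeR adjusted p = 0.0013). Slc25a24 measured 28.2, 25.8 and 28.0 CPM in WT mice and 39.5, 72.1 and 42.7 CPM in UTX TCD mice. It rose by 0.91 ± 0.24 (edgeR adjusted p = 0.015), and the value of UTX TCD replicate 2 was far above those of the other UTX TCD libraries. Without that library the log2 fold change was 0.58 (edgeR adjusted p = 0.0059).

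Slc25a36, a carrier of pyrimidine nucleotides into the matrix, was the most abundant SLC25 gene that rose, in CPM. It measured 111, 112 and 107 CPM in WT mice and 164, 201 and 140 CPM in UTX TCD mice. Its rise of 0.61 ± 0.13 (edgeR adjusted p = 0.009) was seen in all 3 UTX TCD libraries, with no overlap. The span of Slc25a36 from start to end overlaps by 3285 bases that of the antisense gene Gm16185, which rose by 1.07 ± 0.37 with overlapping groups. How many of these bases lie in exons of both genes was not computed. Since the strand setting of the counting is not given, reads from any shared exon bases cannot be told apart. Slc25a45, a little-studied carrier, measured 20.7, 21.1 and 25.9 CPM in WT mice and 33.7, 31.6 and 39.0 CPM in UTX TCD mice, and it rose by 0.62 ± 0.16 without overlap (edgeR adjusted p = 0.016).

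The remaining rises were in carriers of low level. Slc25a27, known as uncoupling protein UCP4 and best known from brain, measured 3.47, 3.04 and 3.86 CPM in WT mice and 6.39, 12.5 and 7.50 CPM in UTX TCD mice. It rose by 1.35 ± 0.33 (edgeR adjusted p = 0.012) on 28 to 35 reads in WT and 53 to 118 in UTX TCD libraries. Slc25a35, a carrier whose substrate is not settled, measured 3.76, 3.58 and 3.18 CPM in WT mice and 4.70, 9.09 and 6.77 CPM in UTX TCD mice. It rose by 0.97 ± 0.31 without overlap (edgeR adjusted p = 0.029) but passed in 1 of 6 fits with a library left out, the one without UTX TCD replicate 1. Over all 6 genes, 4, 2 and 5 rises passed without WT replicates 1, 2 and 3, and 6, 5 and 5 without UTX TCD replicates 1, 2 and 3.

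The other 5 carriers did not pass and had negative fold changes. Slc25a3, which imports phosphate for ATP synthesis, was by far the most abundant at 1425, 1434 and 1425 CPM in WT mice and 1324, 1136 and 1322 CPM in UTX TCD mice. Its UTX TCD values were all lower, but the log2 fold change of -0.18 ± 0.09 did not pass (edgeR adjusted p = 0.089). Slc25a13, the aspartate-glutamate carrier of the malate-aspartate shuttle, stood at -0.24 ± 0.10, and Slc25a33, a second pyrimidine nucleotide carrier, at -0.37 ± 0.16. Slc25a32, linked to folate and flavin transport, stood at -0.22 ± 0.14. Of these 5 genes 0 passed with DESeq2, 1 with limma-voom, 3 with its quality weights and 2 at an unadjusted p under 0.05. The summed level of the 11 carriers was 2097 ± 17.5 CPM in WT mice and 2046 ± 81.7 CPM in UTX TCD mice, with overlap (exact permutation p = 0.4), and Slc25a3 made up most of that sum.

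**Figure D2:**
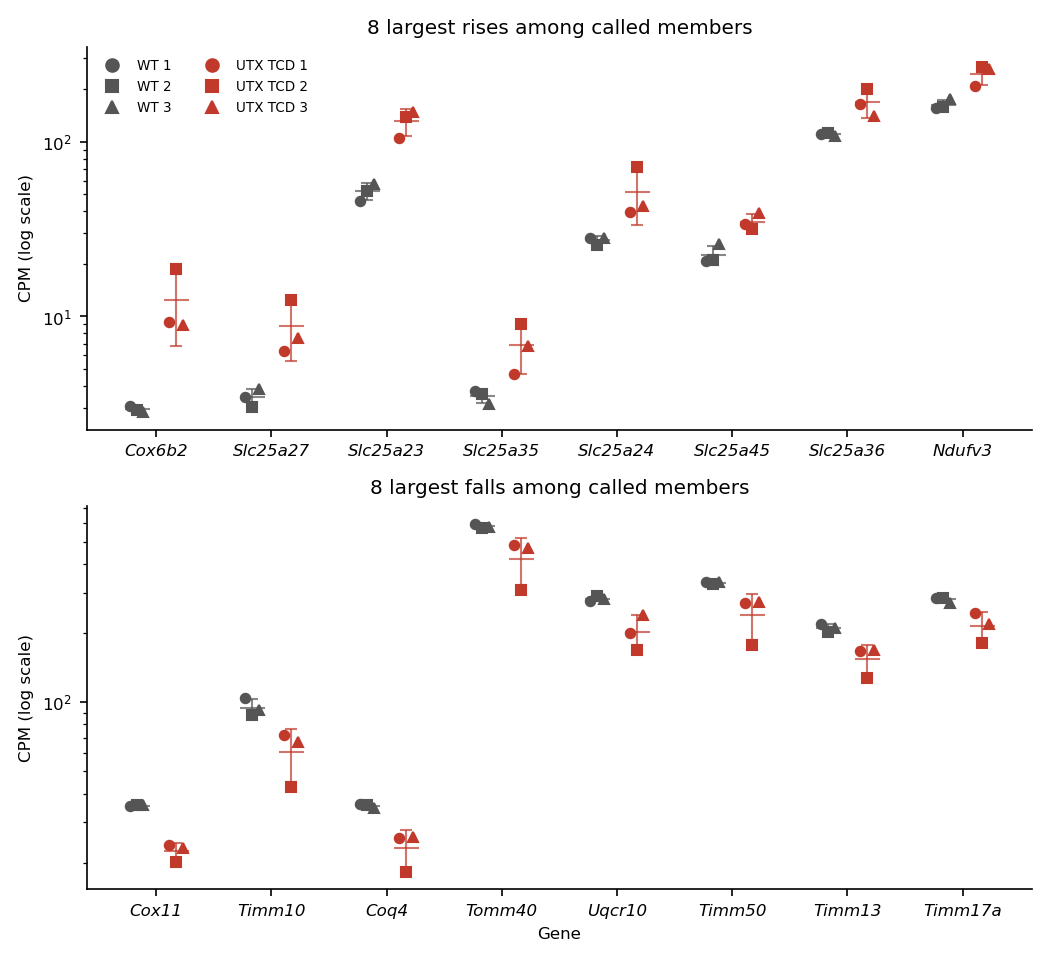
CPM on a log scale of the 8 genes with the largest rise (top) and the 8 with the largest fall (bottom) among those called without overlap. Symbols are the libraries of replicates 1 to 3, WT in grey and UTX TCD in red, and bars are the mean ± SD of 3 libraries. The square of UTX TCD replicate 2 is the lowest point of all 8 falling genes, and grey and red symbols of a gene do not overlap in height.

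In complex I, the NADH dehydrogenase at the entry of the chain, 1 of 5 subunits rose. Ndufv3, an accessory subunit of the NADH-oxidising arm, measured 156, 157 and 176 CPM in WT mice and 208, 267 and 260 CPM in UTX TCD mice. All UTX TCD values were above all WT values and it rose by 0.59 ± 0.12 (edgeR adjusted p = 0.0067). The accessory subunits Ndufa7, Ndufa8, Ndufa10 and Ndufa12 lay between -0.18 and -0.21 on the log2 scale, with edgeR adjusted p-values of 0.090 to 0.10. The summed level of the 5 subunits was 1113 ± 7.76 CPM in WT mice and 1077 ± 71.6 CPM in UTX TCD mice and overlapped (exact permutation p = 0.4). Of the subunits 0 fell, also at an unadjusted p and with DESeq2 and limma-voom, and 1 fell with quality weights.

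Of 6 assembly factors of complex I, 1 rose and 1 fell. Timmdc1, a membrane protein that helps to join the modules of complex I and is related in sequence to TIM channels, measured 101, 103 and 97.2 CPM in WT mice and 84.8, 81.2 and 86.7 CPM in UTX TCD mice. It fell by 0.25 ± 0.09 without overlap (edgeR adjusted p = 0.032). Atp5sl, which despite its name acts in building the membrane arm of complex I, measured 59.9, 55.5 and 59.3 CPM in WT mice and 63.1, 75.0 and 75.3 CPM in UTX TCD mice. It rose by 0.29 ± 0.11 at the edge of the threshold (edgeR adjusted p = 0.049). Each of the 2 calls held in 7 of 16 alternatives. With 1 library left out, that of Timmdc1 held without UTX TCD replicate 1 or 2 and that of Atp5sl without UTX TCD replicate 1, and DESeq2 gave Timmdc1 an adjusted p of 0.073. The factors Ndufaf2, Ndufaf4, Ndufaf7 and Ndufaf8 stood between -0.27 and -0.41 and did not pass.

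Complex III, which passes electrons from coenzyme Q to cytochrome c, had 2 small subunits in the table. Uqcr10 measured 274, 289 and 281 CPM in WT mice and 199, 169 and 241 CPM in UTX TCD mice. The UTX TCD values were spread but all lower, and it fell by 0.47 ± 0.13 (edgeR adjusted p = 0.018). Uqcr11 stood at -0.24 ± 0.12 and did not pass (edgeR adjusted p = 0.10).

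In complex IV, cytochrome c oxidase, the largest rise and the largest fall of all 52 genes were found. Cox6b2, the testis form of a subunit whose common form is Cox6b1, measured 3.07, 2.93 and 2.84 CPM in WT mice and 9.28, 18.8 and 8.96 CPM in UTX TCD mice. These levels rest on 25 to 31 reads in WT and 77 to 178 in UTX TCD libraries. It rose by 2.06 ± 0.36, 4.18-fold (edgeR adjusted p = 0.0044), with a log2 fold change of 1.62 without UTX TCD replicate 2. Cox11, which delivers copper to the catalytic core, measured 35.2, 35.6 and 35.5 CPM in WT mice and 24.0, 20.2 and 23.1 CPM in UTX TCD mice. The replicates of each genotype were close and apart from the other genotype, and Cox11 fell by 0.66 ± 0.14 (edgeR adjusted p = 0.0083). The subunits Cox6a1 and Cox7a2 stood at -0.16 ± 0.08 and -0.30 ± 0.13, and Cox10, an enzyme of the heme a pathway that supplies this complex, at -0.22 ± 0.13. None of these 3 passed with edgeR's adjusted p, DESeq2 or limma-voom, and 1 of them, Cox7a2, had an unadjusted p under 0.05.

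Complex V, the ATP synthase, had 3 genes, none of which passed with edgeR, at an unadjusted p, with DESeq2 or with limma-voom, while 2 passed with quality weights. Atp5b, the catalytic beta subunit, measured 4996, 4810 and 4877 CPM in WT mice and 4495, 3964 and 4467 CPM in UTX TCD mice. Its groups did not overlap and its log2 fold change was -0.18 ± 0.09 (edgeR adjusted p = 0.080). Atp5f1, a subunit of the peripheral stalk, measured 654, 659 and 655 CPM in WT mice and 590, 515 and 609 CPM in UTX TCD mice. It stood at -0.20 ± 0.09 (edgeR adjusted p = 0.069). The span of Atp5f1 overlaps by 731 bases that of Wdr77 on the other strand, which fell by 0.57 ± 0.15, and shared exon bases were not computed. Atp5g1, which encodes a copy of the rotor ring subunit, stood at -0.36 ± 0.17. The summed level of the 3 genes was 5642 ± 89.1 CPM in WT mice and 4951 ± 364 CPM in UTX TCD mice without overlap, a change of -12.2% (exact permutation p = 0.1). As for the translocases, that p is the smallest possible and comes from genes selected on the genotype difference.

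Over the 22 genes of complexes I to V, the 3 rises and 3 falls became 2 and 1 without WT replicate 1 or 2, and 2 and 2 without WT replicate 3. They were 3 and 7, 2 and 6, and 2 and 7 without UTX TCD replicates 1, 2 and 3. When libraries were scaled so that the emptiest point of the fold changes fell at 0, the counts were 2 and 16. Sdhd was the single gene of complex II and is described above.

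Coenzyme Q genes divided. Coq4, needed for the assembly of the enzymes that make coenzyme Q, measured 35.9, 35.6 and 34.6 CPM in WT mice and 25.7, 18.3 and 25.9 CPM in UTX TCD mice. Groups did not overlap and it fell by 0.60 ± 0.17 (edgeR adjusted p = 0.021). The paralogues Coq10a and Coq10b, whose products bind coenzyme Q and support its use in the chain, went opposite ways. Coq10a measured 20.9, 21.1 and 26.7 CPM in WT mice and 28.0, 32.6 and 32.0 CPM in UTX TCD mice and rose by 0.43 ± 0.17 (edgeR adjusted p = 0.048). Coq10b measured 83.2, 98.5 and 82.5 CPM in WT mice and 71.3, 65.2 and 69.4 CPM in UTX TCD mice and fell by 0.36 ± 0.11 (edgeR adjusted p = 0.023). Neither overlapped between genotypes. The methyltransferases Coq3 and Coq5 stood at -0.29 ± 0.11 and -0.26 ± 0.10, just outside the threshold (edgeR adjusted p = 0.052 and 0.051). No rise and no fall passed without WT replicate 1 or 2. The rise did not pass without UTX TCD replicate 2 or 3, and 1 fall, that of Coq10b, passed without WT replicate 3.

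**Figure D3:**
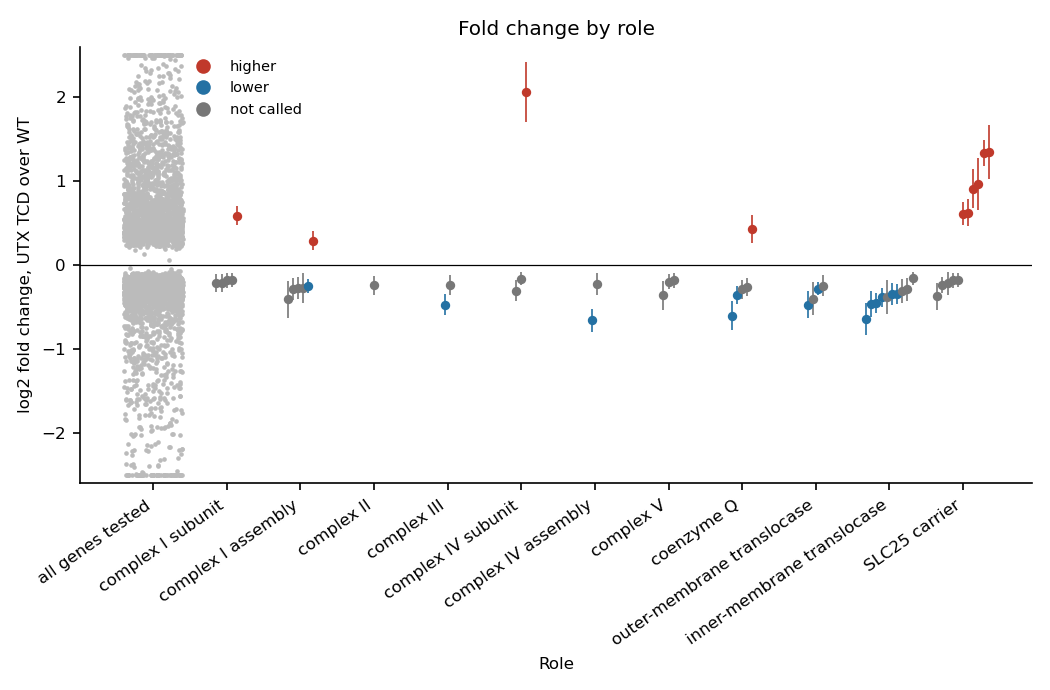
Log2 fold change of each gene by role, with all 4118 genes tested at the left (grey, values beyond ±2.5 drawn at ±2.5). Points are fold changes and bars are standard errors, red for called higher, blue for called lower and grey for not called. The empty band around 0 in the column of all genes is the mark of the selection, and the SLC25 carriers split into 6 red points above 0.6 and 5 grey points below 0.

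UTX TCD replicate 2 was the library farthest from WT for many of these genes. It held the lowest UTX TCD value in 38 of the 42 genes with a negative fold change, and in all 13 that fell. It held the highest in 7 of the 10 that rose. Over all genes it was farthest from WT in 70.1% of those called lower and in 71.3% of those called higher. The median log2 level of the 52 genes relative to the WT mean was -0.17, -0.43 and -0.15 in UTX TCD replicates 1, 2 and 3, and that of all genes tested was -0.06, -0.14 and -0.10. Summed over the 52 genes the levels were 14434, 14244 and 14132 CPM in WT mice and 12938, 11209 and 13165 CPM in UTX TCD mice. The groups did not overlap, and the change of the mean was -12.8% (exact permutation p = 0.1). That p, the smallest possible, is again for genes selected on the genotype difference.

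**Figure D4:**
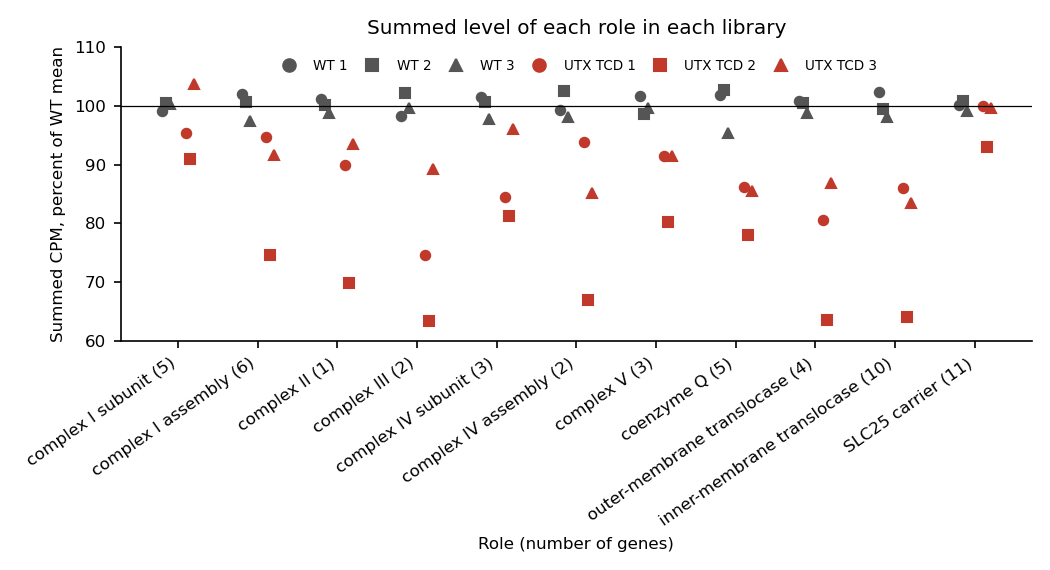
Summed CPM of the genes of each role in each library, as a percent of the WT mean of that role (the axis begins at 60). WT libraries are grey and UTX TCD libraries red, with the replicate given by the symbol. The TOM and TIM sums of UTX TCD replicate 2 are the farthest below 100 beside that of complex III, and the sums of complex I subunits and SLC25 carriers overlap between genotypes.

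Genes that rose were mostly less abundant in WT cells than genes that fell. Per kilobase of exon, the most abundant genes in WT cells were Atp5b at 1155 CPM per kb, Cox6a1 at 575 and Uqcr10 at 482, followed by Sdhd and Cox7a2 at 313 and 312, which do not differ beyond their spread. The lowest were Cox6b2 at 2.66, Slc25a35 at 0.95 and Slc25a27 at 0.88 CPM per kb. Genes that rose had a median WT level of 8.54 CPM per kb, and those that fell a median of 116. Ndufv3 at 51.1 CPM per kb was the most abundant gene that rose, and the next was Atp5sl at 19.3. Of the 10 genes with the lowest level per kb, 8 rose and 2 fell. Over all genes of the table the medians were 9.27 for genes called higher and 38.6 for genes called lower. The genes that rose also had longer exon sequence, a median of 3310 bases against 1784, and over all genes these medians were 5124 and 3871. These lengths join the exons of all annotated transcripts of a gene. They are not lengths of single transcripts, and the levels per kb depend on them.

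**Figure D5:**
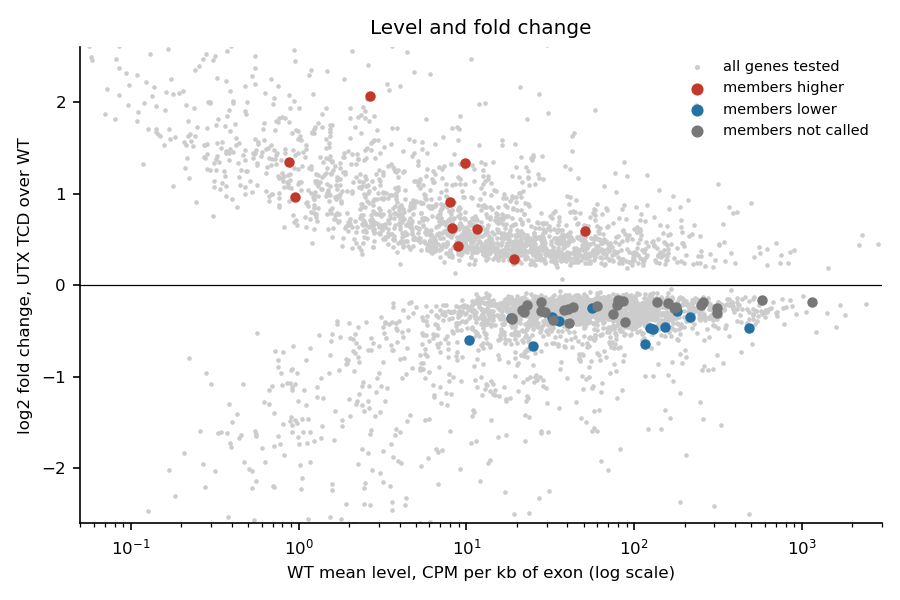
Log2 fold change against the WT mean level in CPM per kb of exon (log axis). Small grey points are all genes tested with a length, and large points are the 52 genes, red for called higher, blue for called lower and dark grey for not called. The red points lie at 51.1 CPM per kb or below, and the blue ones between 10.4 and 482.

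By position, 5 of the genes lie on chromosome 17, and 3 of them, Ndufv3, Slc25a23 and Slc25a27, rose. On that chromosome 47.5% of 202 genes tested were called higher. Ndufv3 lies at chr17:31520115-31531331, Slc25a23 at chr17:57043711-57059863, and Slc25a27 at chr17:43641891-43667214 (GRCm38). Cox6b2 lies at chr7:4751792-4753094 and Cox11 at chr11:90638173-90644931. The spans of 18 of the 52 genes overlap a gene on the other strand. Shared exon bases were not computed, and reads from any such bases cannot be assigned if the counting ignored strand. Genes with near-identical processed copies elsewhere may also have lost or gained reads.

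Other genes of the pathway came from lists of its partners. The counts of each list below stand beside 41.1% of all genes tested called higher and 27.0% called lower. Among partners of import, 14 of 37 genes were tested, and 9 fell and 0 rose, at a median log2 fold change of -0.33. All 14 fold changes were negative, so that 0 rises at an unadjusted p was fixed in advance. DESeq2 and limma-voom, weighted or not, gave 0 rises too. The falls numbered 7 with DESeq2 and 9 with limma-voom, weighted or not. Dnajc15, a J-protein of the import motor, fell by 0.61 ± 0.10 (edgeR adjusted p = 0.0037), from 152 ± 4.23 to 99.4 ± 10.8 CPM. Clpp, the matrix protease, and Hspe1, the co-chaperonin of the matrix, fell by 0.56 ± 0.10 and 0.53 ± 0.12 (edgeR adjusted p = 0.0051 and 0.010). Among electron carriers and dehydrogenases, 6 of 16 were tested, 3 fell and 1 rose at a median of -0.24. Cyc1, the cytochrome c1 subunit of complex III, and Etfb, which brings electrons from fatty acid oxidation, fell by 0.35 ± 0.10 and 0.48 ± 0.15. Suox, the sulfite oxidase of the intermembrane space, rose by 0.62 ± 0.19.

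Among other assembly factors 8 of 50 were tested, 3 fell and 1 rose at a median of -0.26. Coa4 and Tmem126a, which act in complex IV and complex I assembly, fell by 0.63 ± 0.14 and 0.42 ± 0.11. Atpif1, the inhibitor of the ATP hydrolysis of complex V, rose by 0.48 ± 0.09 (edgeR adjusted p = 0.005). Among other mitochondrial channels and transporters 9 of 33 were tested, 4 rose and 2 fell at a median of 0.45. Sfxn3, a sideroflexin, and Abcb10, a transporter linked to heme synthesis, rose by 0.84 ± 0.14 and 0.57 ± 0.16, and Tmem65 fell by 0.37 ± 0.10. In the tricarboxylic acid cycle and pyruvate dehydrogenase list, 10 of 32 were tested, 1 rose and 2 fell at a median of -0.19. Pdk2, a kinase that inhibits pyruvate dehydrogenase, rose by 1.40 ± 0.33 from 5.92 ± 2.13 to 15.6 ± 3.27 CPM. Dlat and Mdh2 fell by 0.25 ± 0.09 and 0.27 ± 0.10 (edgeR adjusted p = 0.042 and 0.047). Of this list 0 genes fell with DESeq2, 3 with limma-voom and 6 with its quality weights. Among regulators of mitochondrial gene expression, 6 of 33 were tested, and Nfe2l2 and Polg2 rose by 0.29 ± 0.08 and 0.53 ± 0.17, at a median of -0.22. None of the 13 subunits encoded by the mitochondrial genome was analysed here. All 52 genes and these lists were read in a table selected on the genotype difference, so that their counts speak for the listed genes and not for the pathway.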

How the data were processed

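RNA sequencing of 6 libraries was used, 3 per genotype. The authors deposited 1 table of whole-number read counts for each gene, made with FastQC, HISAT2 and HTSeq on the build mm10, per the submitters' processing notes. The sources used here do not give versions, annotation or strand setting. The rows had been selected on the genotype difference by a rule that is not given, so CPM values are relative to the listed genes and adjusted p-values count too few tests. Counts were tested with edgeR 4.0.16 in R 4.3.3 (quasi-likelihood test, TMM scaling, genotype as the only term, minimum count 10, minimum total count 15). This left 4118 of 4162 genes, and p-values were adjusted by Benjamini-Hochberg over these. A standard error is the absolute log2 fold change over the square root of F. There were 16 alternatives, among them DESeq2 1.42.0, limma 3.58.1 and each library left out. Gene positions and exon lengths are from GENCODE M21 (GRCm38), with exons joined over all transcripts of a gene.

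The genes, the lists and the tests were chosen with earlier results of these data known. The genes given with values in every library are the 8 largest rises and 8 largest falls among called genes without overlap, the smallest p in each role, Sdhd and Timm8a1 from a panel of 10, and others chosen after their values were seen (Atp5b, Slc25a3, Timmdc1, Atp5sl, Coq10a and Coq10b). Of each other list up to 3 called genes with the smallest p are named. The promoter windows shown were chosen after the motif search and the calls. The values of 1 of the 52 genes are not reported here, though it enters the counts and sums.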

Additional observations from a re-analysis of the deposited data

How the results depend on the processing

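With 10 genes higher and 13 lower in the fit reported, leaving out 1 library gave 4 to 10 higher and 1 to 23 lower. The 5 genes Cox11, Cox6b2, Ndufv3, Slc25a23 and Slc25a36 passed in all 16 alternatives, and 0 of the 52 genes changed sign in any of them, in a table that holds few genes near 0. Counting every annotated protein-coding gene as a test left 4 higher and 1 lower. The lower count was 8 with upper-quartile scaling, 36 with gap-centred scaling and 25 with limma-voom and quality weights. DESeq2 gave 10 and 10, limma-voom 10 and 15. The higher share of all calls was 60.4% with TMM, 67.2% with RLE and 70.6% with upper-quartile scaling, but 45.8% when the gap was centred, and the median log2 fold change of all genes moved between -0.07 and -0.23. Among 320 comparisons of named genes with an alternative, 45 no longer passed and 5 newly passed, and 31 of the 45 came from leaving out a library. The log2 fold change of Kdm6a kept its sign and its call.

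Pairing by replicate number is not stated in the sample labels. Same-numbered libraries deviated from their group means with correlations of 0.279, -0.281 and 0.18, and differently numbered ones with -0.423 to 0.203. Deviations from a mean of 3 sum to 0, so these values cannot show whether samples were paired. With the replicate block, 8 genes were higher and 12 lower. The cause of these shifts was not tested. Fits with 1 library left out estimate the spread from fewer samples. Cox6b2, Slc25a27 and Slc25a35 rest on 25 to 38 reads in each WT library.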
